A study of Sus scrofa with 6 samples.

Results

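Insulin-like growth factor 1 (IGF1) and the IGF binding proteins (IGFBPs) were described in cultured porcine bone marrow mesenchymal stem cells, which are stromal cells that adhere to plastic. The set consisted of 7 genes, IGF1, IGFBP2, IGFBP3, IGFBP4, IGFBP5, IGFBP6 and IGFBP7, and a gene was included where the platform annotation gave a probe set its symbol alone. That held for 5 of the 7, each with 1 probe set, among 11078 named genes and 27558 probe sets in all. IGFBP2 and IGFBP5, which lie next to each other in the pig genome in RefSeq's table for Sscrofa11.1, had no such probe set and are not analysed here.

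IGF1 is a secreted growth factor that acts through a receptor tyrosine kinase, IGF1R, and supports growth and survival of bone and stromal cells. In blood and tissue most IGF is held by binding proteins, which prolong its life and keep it from the receptor. Proteases such as PAPPA, which cleaves IGFBP4, release it again. In bone marrow, stromal cells, osteoblasts and macrophages are all known sources of IGF1.

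The study compared marrow stromal cells of the jaw with those of a long bone. Marrow was aspirated from the mandibular symphysis, in the chin region of the lower jaw, and from the tibia of 3 female American Yorkshire pigs aged 4 months, and there were 3 cultures per site. All 6 cultures shared the same handling: whole marrow was plated on plastic without sorting, grown in alpha-MEM with 20% fetal bovine serum to 80% confluence, and harvested at passage 0. The labels number the samples within a site but tie no number to a pig, so samples were treated as unpaired, and p-values measure only the spread between these cultures, some of which share an animal. RNA was hybridised to a 1-colour Affymetrix porcine array, and the deposited levels are log2 values after RMA, the authors' normalization. Levels of different probe sets do not show which gene has more RNA, so each gene is compared with itself across arrays. Percentiles within an array serve only to mark low levels, and list means only to follow a list across arrays.

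Precision is limited by the small number of arrays. Array medians lay between 5.63 and 5.71. Levels below the arrays' lower quartiles of 3.86 to 3.94 are treated as background, a cut of convenience, as no detection calls were used. Of 16 stromal markers 13 were measured, and their mean level was between 9.81 and 10.16 on the 6 arrays. COL1A1, the main collagen of bone, lay between 13.24 and 13.49. Other stromal markers varied more than the mean. VCAM1 ran from 3.68 on mandibular 3 to 9.52 on tibial 1, and S100A4, NT5E and DCN spanned 2.28, 2.08 and 1.99. Mean levels of positional genes did not follow the labels on 2 arrays. The mean of 5 HOX genes, which mark trunk and limb, was 4.57 on mandibular 1 and 4.56 on mandibular 3 but 6.73 on mandibular 2, and it was 6.75 and 6.74 on tibial 1 and tibial 2 but 5.11 on tibial 3. The mean of 8 jaw mesenchyme genes was 6.88 and 6.65 on mandibular 1 and 3 against 5.22 on mandibular 2, and 5.23 and 5.06 on tibial 1 and 2 against 6.74 on tibial 3. Not every jaw gene followed this mean. BARX1 ran the other way, highest on mandibular 2 at 7.45 and lowest on tibial 3 at 5.65, and LHX6 and ALX4 had ranges of only 0.37 and 0.58. For the members and the pathway genes described in full, the difference with mandibular 2 and tibial 3 left out is given beside that of all arrays. These 2 arrays were chosen after the data were seen. Leaving them out can narrow the spread within sites of genes that share their pattern. Calls and p-values of that fit are therefore descriptive and are no test of the sites.

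Between the labelled sites, no member passed the test. With limma and Benjamini-Hochberg adjustment, 0 of 5 members and 0 of 27558 probe sets (0%) had an adjusted p under 0.05, and the adjusted p of every member was 0.9995. At an unadjusted p under 0.05 there was 1 member, IGF1, against 836 probe sets, 3.03% of all. In none of the 5 were the mandibular and tibial levels free of overlap, where 6.92% of all probe sets were. The smallest p that an exact permutation test can give for 3 arrays against 3 is 0.1.

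IGF1, the only ligand of the family that was measured, had the widest range of the set. It measured 8.62, 9.19 and 8.38 on mandibular 1, 2 and 3 and 10.98, 10.22 and 8.90 on tibial 1, 2 and 3. The levels on tibial 1 and tibial 2 stood above the other 4, while tibial 3 lay below mandibular 2, so the sites overlapped. From the lowest array to the highest the span was 2.60 log2 units, or 6.07-fold, which placed IGF1 at percentile 97.7 of the ranges of all named genes.

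The mean IGF1 level of mandibular cultures was 8.73 ± 0.41 (SD, n = 3), and that of tibial cultures was 10.03 ± 1.05 (SD, n = 3). The difference, mandibular minus tibial, was -1.31 (SE 0.52, 95% interval -2.54 to -0.07), a level 2.47-fold higher in tibial cultures. Limma's unadjusted p was 0.041 and the two-sided exact permutation test gave p = 0.2. The difference was negative in each fit that left out 1 array, from -0.83 without tibial 1 to -1.87 without tibial 3. Without mandibular 2 and tibial 3 it was -2.10, with an adjusted p of 0.0561 in limma.

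**Figure D1:**
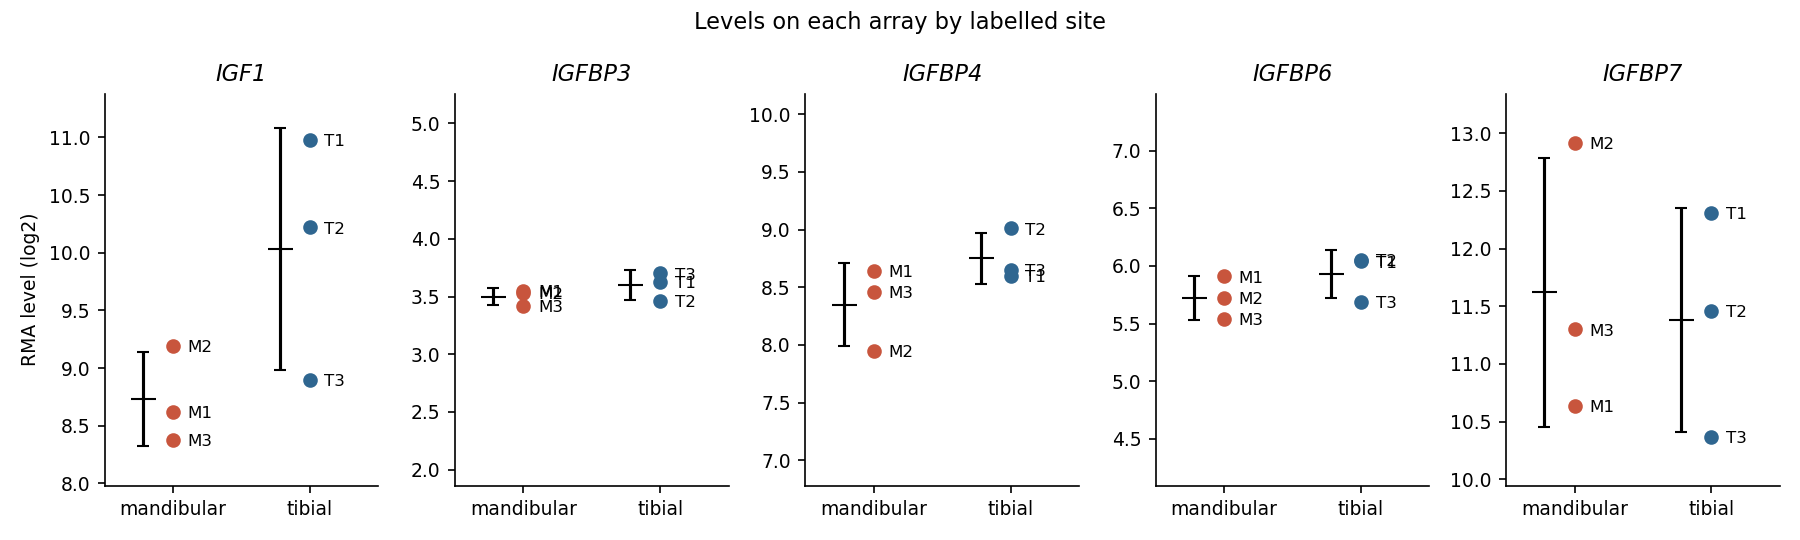
RMA levels (log2) of the 5 measured genes on each array, mandibular (M1 to M3, red) and tibial (T1 to T3, blue), with the site mean and SD (n = 3) as black bars; the panels have equal spans on separate axes. For IGF1 the arrays T1 and T2, at 10.98 and 10.22, lie above all others, and for IGFBP7 the highest array is M2, at 12.92.

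IGF1 was highest on the arrays where the mean levels of macrophage, osteoclast and adipocyte markers were highest, though not every marker of these lists followed its mean. Of 22 macrophage and monocyte markers 17 were measured, and 16 of the 17 had a lower mean in mandibular cultures, with a median difference of -2.18. The exception was CD86, at 9.85, 7.80 and 9.87 in mandibular and 8.44, 7.44 and 9.64 in tibial cultures. Such high levels weigh most in a sum. The log2 of the summed level of the 17 markers ranged from 10.60 to 11.03 on mandibular and from 10.78 to 13.39 on tibial arrays. Their mean level was 8.44 on tibial 1, 7.85 on tibial 2, 6.17 on mandibular 2, 5.52 on tibial 3, 5.04 on mandibular 3 and 4.99 on mandibular 1. The first 4 arrays in this order are the first 4 for IGF1 as well. Below the lower quartile of the array were 6, 1 and 5 of the 17 on mandibular 1, 2 and 3, and 0, 0 and 4 on tibial 1, 2 and 3. PTPRC, the pan-leukocyte antigen CD45, measured 3.42, 4.86 and 3.71 in mandibular and 7.66, 6.96 and 3.91 in tibial cultures. The 8 osteoclast markers had means of 7.72, 7.27, 6.10 and 5.53 on tibial 1, tibial 2, mandibular 2 and tibial 3 and of 5.35 and 5.33 on mandibular 3 and mandibular 1, with a median difference of -1.13. Within this list CTSK, TNFRSF11A and CALCR differed by only 0.02, -0.06 and -0.01, and CALCR was below the lower quartile on every array. The 5 measured adipocyte markers had means of 8.03, 6.91 and 6.18 on tibial 1, tibial 2 and mandibular 2 and between 4.54 and 4.82 on the other 3, with a median difference of -0.72. Among them CD36, which macrophages use as well, measured 9.87 on tibial 1 and 2.74 on mandibular 3. PLIN1 instead was highest on mandibular 1, at 6.05, with a difference of 0.12. The stromal marker VCAM1 was also highest on tibial 1, tibial 2 and mandibular 2, at 9.52, 7.55 and 5.57. The mean of the 13 stromal markers stayed between 9.81 and 10.16. The part of these cell types in the IGF1 result was not tested, and in bulk RNA fewer cells of a type and less RNA per cell cannot be told apart. Cell cycle markers ran the other way, with means of 6.24 and 6.87 on tibial 1 and tibial 2 and between 7.82 and 8.74 on the other 4. Means of osteoblast markers lay between 6.96 and 7.46, of skeletal muscle markers between 5.32 and 6.11 and of epithelial markers between 4.68 and 5.19. Single osteoblast markers varied more than their mean. SPP1 ran from 9.16 on tibial 3 to 12.05 on tibial 1, IBSP spanned 3.65 with its highest level on tibial 2, and BGLAP spanned 2.24 with its highest on mandibular 1. DMP1 and PHEX were below the lower quartile on every array.

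The genes whose pattern was most like that of IGF1 were LCP1, CMKLR1, NKG7, THEMIS2 and GNA15. Likeness was the Pearson correlation over the 6 arrays, with 1636 other named genes whose highest and lowest levels lay at least 1 log2 unit apart, and r was between 0.9953 and 0.9983 for these 5. LCP1, which encodes the leukocyte actin bundler L-plastin, measured 4.88, 6.51 and 4.40 on the mandibular and 10.75, 9.04 and 5.38 on the tibial arrays. CMKLR1, the chemerin receptor found on macrophages, measured 4.82, 5.78 and 4.71 and then 8.08, 7.11 and 5.15. NKG7, known from cytotoxic lymphocytes, measured 9.84 on tibial 1 and 8.40 on tibial 2, against 5.69 on tibial 3. THEMIS2, a signalling protein of B cells and macrophages, and GNA15, a G protein subunit of blood cells, had smaller spans, from 4.76 to 5.79 and from 4.27 to 6.16. The 6 arrays share pigs and processing, 220 of the 1636 genes had r above 0.9, and the correlation describes these arrays only.

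**Figure D2:**
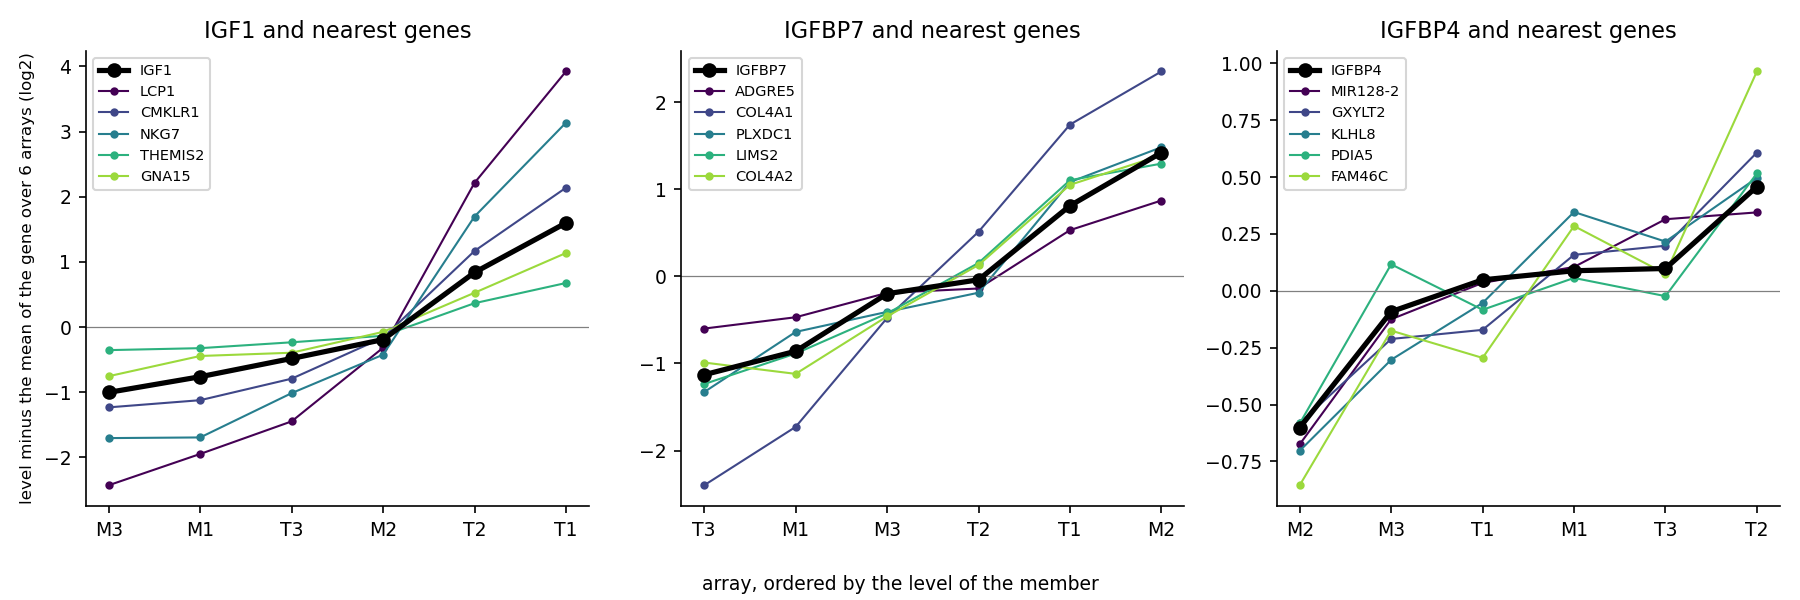
Level minus the gene's own mean over the 6 arrays (log2) for IGF1, IGFBP7 and IGFBP4 (black) and the 5 genes most correlated with each (colours), with arrays ordered from the lowest to the highest level of the member. IGF1 and its 5 genes are highest on T1 and T2, IGFBP7 and its 5 on M2 and T1, and IGFBP4 has its lowest level on M2.

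Receptors of IGF and insulin were measured with 4 genes. IGF1R, which transmits the IGF1 signal, measured 9.34, 9.71 and 9.30 in mandibular and 9.58, 9.29 and 9.17 in tibial cultures. Its highest level was on mandibular 2, its range was 0.54, and its difference was 0.10 (SE 0.17). The direction turned without mandibular 2, at -0.02, and without mandibular 2 and tibial 3, at -0.11. IGF2R, which clears IGF2 and carries lysosomal enzymes, ranged from 7.92 on mandibular 3 to 8.63 on tibial 1, and its site means differed by less than 0.01 with an SE of 0.22, or by -0.23 without mandibular 2 and tibial 3. INSR, the insulin receptor, differed by -0.03 (SE 0.11) and INSRR, a related receptor, by 0.03 (SE 0.12). INSR had 3 probe sets, with differences of -0.03, -0.11 and -0.10. The ranges of IGF1R and IGF2R, 0.54 and 0.71, were above the median range of named genes, 0.51, and none of the 4 receptor genes spanned 1 log2 unit, as 14.8% of named genes did. IGF2 and INS had no probe set with a single symbol and are not analysed here.

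IGFBP7, a secreted protein of vessel walls and stroma that binds IGFs weakly, varied nearly as widely as IGF1, with the same 3 arrays highest but in another order. It measured 10.64, 12.92 and 11.30 on mandibular 1, 2 and 3 and 12.31, 11.46 and 10.37 on tibial 1, 2 and 3. Each site held high and low arrays: mandibular 2 was the highest of all 6 and tibial 3 the lowest, a span of 2.55 log2 units or 5.86-fold. The site means were 11.62 ± 1.17 (SD, n = 3) and 11.38 ± 0.97 (SD, n = 3). The difference of 0.24 (SE 0.69, 95% interval -1.41 to 1.89) was smaller than the spread within either site, and the exact permutation test gave p = 0.8, two-sided.

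The direction for IGFBP7 rested on the arrays that went against their labels. The difference was -0.41 without mandibular 2 and -0.26 without tibial 3, and it lay between 0.28 and 0.73 when any one of the other 4 was left out. Without both arrays it was -0.91 (adjusted p = 0.513 in limma). The arrays with HOX means of 6.73 to 6.75, mandibular 2, tibial 1 and tibial 2, had IGFBP7 levels of 12.92, 12.31 and 11.46, and mandibular 1, mandibular 3 and tibial 3, with lower HOX means, had 10.64, 11.30 and 10.37. IGF1 was arranged in this way too, at 9.19, 10.98 and 10.22 against 8.62, 8.38 and 8.90. IGFBP3, IGFBP4 and IGFBP6 overlapped between these groups, with IGFBP4 at 7.95, 8.60 and 9.01 against 8.64, 8.46 and 8.65. This grouping was made after the data were seen. The share of all probe sets arranged in this way was not counted, so the arrangement is no result about the members. Of 8 markers of smooth muscle and pericytes, cells that can carry IGFBP7, 5 were measured, with means of 9.71, 9.57 and 9.59 on mandibular 2, tibial 1 and tibial 2 and of 9.38, 9.41 and 9.39 on mandibular 1, mandibular 3 and tibial 3. Of these, the contractile gene CNN1 measured 11.09, 11.01 and 11.03 against 10.16, 10.16 and 10.22, while the pericyte gene CSPG4 measured 8.41, 7.92 and 8.59 against 8.35, 8.72 and 8.54, and the pericyte gene RGS5 was below the lower quartile on every array. Of the 9 endothelial markers 5 were measured, with means between 4.56 and 5.01. KDR was below the lower quartile on every array and TEK on mandibular 1, mandibular 2 and tibial 3. PECAM1, VWF and CLDN5 lay above it on every array. PECAM1 measured 5.60, 5.63 and 5.58 in mandibular and 6.36, 6.24 and 5.84 in tibial cultures. The part of these cell types or of the array labels in the IGFBP7 levels was not tested.

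The 5 genes most like IGFBP7 were ADGRE5, COL4A1, PLXDC1, LIMS2 and COL4A2, with r between 0.9788 and 0.9922 over the 6 arrays. COL4A1 and COL4A2 encode the collagen IV chains of basement membranes. COL4A1 measured 6.56, 10.64 and 7.81 on the mandibular and 10.03, 8.80 and 5.89 on the tibial arrays, and COL4A2 measured 6.06, 8.57 and 6.72 and then 8.23, 7.31 and 6.19. Both were highest on mandibular 2 and next highest on tibial 1, as IGFBP7 was. PLXDC1, a membrane protein of tumour endothelium, ranged from 9.15 to 11.96, and LIMS2, an adaptor of integrin adhesions, from 7.91 to 10.44. ADGRE5, an adhesion receptor also known as CD97, had the narrowest span of these, from 8.67 to 10.14. Of the 1636 genes compared, 70 had r above 0.9 with IGFBP7. Between IGF1 and IGFBP7 themselves r was 0.48 over these arrays.

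IGFBP4, which mostly restrains IGF action in bone, was lowest on mandibular 2. It measured 8.64, 7.95 and 8.46 in mandibular and 8.60, 9.01 and 8.65 in tibial cultures. Apart from 7.95 on mandibular 2 and 9.01 on tibial 2, the levels lay within 8.46 and 8.65, and the sites overlapped. The means were 8.35 ± 0.36 (SD, n = 3) and 8.75 ± 0.22 (SD, n = 3), and the difference was -0.40 (SE 0.21, 95% interval -0.91 to 0.11), with an exact permutation p of 0.2, two-sided. It was -0.20 without mandibular 2, -0.27 without tibial 2, from -0.54 to -0.45 in the other 4 fits without 1 array, and -0.25 without mandibular 2 and tibial 3. The nearest genes were MIR128-2, GXYLT2, KLHL8, PDIA5 and FAM46C, with r between 0.9373 and 0.9512. MIR128-2 had levels from 3.16 to 4.18, in part below the lower quartile. In GXYLT2, a xylosyltransferase gene, the levels were 8.10, 7.36 and 7.73 in mandibular and 7.77, 8.55 and 8.14 in tibial cultures, also lowest on mandibular 2 and highest on tibial 2. PDIA5, an isomerase of the endoplasmic reticulum, was highest on tibial 2 at 8.10, KLHL8 spanned 6.18 to 7.38 and FAM46C 6.96 to 8.78. Only 7 of 1636 genes had r above 0.9 with IGFBP4, against 220 for IGF1.

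IGFBP6, a binding protein that prefers IGF2 to IGF1, had a range typical of named genes, whose median range was 0.51. It measured 5.91, 5.72 and 5.54 in mandibular and 6.04, 6.05 and 5.69 in tibial cultures. Its 2 highest levels were those of tibial 1 and tibial 2, the arrays highest for IGF1, and the whole range was 0.51. The site means of IGFBP6 were 5.72 ± 0.19 (SD, n = 3) and 5.93 ± 0.21 (SD, n = 3), which differed by -0.20 (SE 0.16, 95% interval -0.58 to 0.18), or -0.32 without mandibular 2 and tibial 3. The exact permutation test gave p = 0.3, two-sided.

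IGFBP3, the main carrier of IGF1 in blood, measured 3.55, 3.53 and 3.42 in mandibular and 3.63, 3.46 and 3.70 in tibial cultures. All 6 levels lay below the lower quartile of their array, between percentiles 19.5 and 22.5 of its probe sets. By the lower-quartile cut this probe set gave no level that can be told from background. Its difference of -0.10 (SE 0.12, 95% interval -0.38 to 0.19), or -0.06 without mandibular 2 and tibial 3, therefore says little about IGFBP3 RNA. IGFBP1, its neighbour in the genome and a binding protein of liver, measured 4.21, 4.19 and 4.26 in mandibular and 4.19, 3.91 and 4.01 in tibial cultures. The IGFBP1 difference was 0.19 (SE 0.12), and it was also 0.19 without mandibular 2 and tibial 3. The 2 values of 4.19 differed beyond these decimals, so the sites of IGFBP1 did not overlap, at levels close to background. IGFALS, the acid-labile subunit that joins IGFBP3 and IGF1 in serum, differed by 0.01 (SE 0.16) and IGFBPL1 by 0.08 (SE 0.12).

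**Figure D3:**
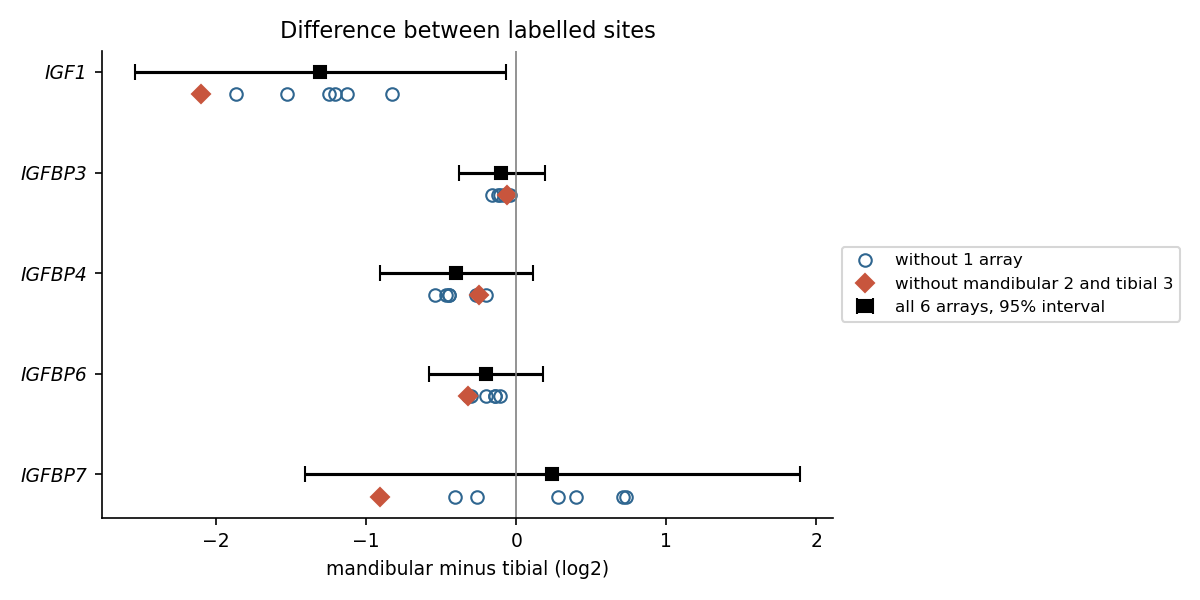
Difference between sites, mandibular minus tibial (log2), for each of the 5 genes: black squares with the 95% interval of limma for all 6 arrays, open circles for the fits without 1 array and red diamonds for the fit without mandibular 2 and tibial 3. IGF1 stays below 0 in every fit shown, from -2.10 to -0.83, while IGFBP7 lies on both sides of 0, from -0.91 to 0.73.

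The other genes of the pathway came from lists written with earlier results of these data known. Of 85 listed genes 65 were measured, members included. Counting all 65, 0 were called in either direction (background 0%), 3 (IGF1, MMP1 and INPP5D) had an unadjusted p under 0.05 in limma (background 3.03%), and the median difference was -0.01 against 0.00 over all probe sets. The levels of the sites did not overlap for 4 of the 65, or 6.15%, against 6.92% of all probe sets. These were IGFBP1, CYR61, the adaptor gene SHC1 and the mTOR complex gene RICTOR, all with higher mandibular levels, by 0.13 to 0.29, a direction that holds 3.35% of all probe sets. Levels spanned at least 1 log2 unit for 20 of the 65, or 30.8%, against 16.1% of all probe sets.

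Genes for IGFBP proteases and their inhibitors held 8 of those 20, among 15 measured. PAPPA, the metalloprotease that cleaves IGFBP4, was chosen for description after its values were seen. It measured 7.24, 10.22 and 7.45 on mandibular 1, 2 and 3 and 8.93, 9.44 and 7.22 on tibial 1, 2 and 3, a span of 3.00 log2 units or 8.02-fold. Its highest array, mandibular 2, was the highest for IGFBP7 and IGF1R and the lowest for IGFBP4. On tibial 2, the next highest array for PAPPA, IGFBP4 was at its highest, and r between PAPPA and IGFBP4 was -0.33 over the 6 arrays. The PAPPA difference was -0.22 (SE 0.91), and it ranged from -1.18 without mandibular 2 to 0.31 without mandibular 1. Without mandibular 2 and tibial 3 it was -1.84 (SE 0.23, adjusted p = 0.0446 in limma), with 2 arrays per site, where 0.708% of all probe sets were called and 0.548% were called lower in mandibular cultures. STC1 and STC2, secreted inhibitors of PAPPA, differed by 0.15 (SE 0.18) and 0.06 (SE 0.34).

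Of the genes named by rule in this list, ADAM28 had the largest difference. ADAM28, a metalloprotease of lymphocytes and macrophages, measured 3.53, 4.67 and 3.46 in mandibular and 7.45, 6.68 and 3.73 in tibial cultures. Only tibial 1, tibial 2 and mandibular 2 stood above the lower quartiles, so its difference of -2.07 (SE 0.94) involves levels at background, and it was -3.18 without tibial 3 and -1.32 without tibial 1. It was called without mandibular 2 and tibial 3, at -3.57 (SE 0.28, adjusted p = 0.0125 in limma). MMP1, a collagenase, measured 5.04, 4.12 and 4.85 in mandibular and 4.32, 3.45 and 3.91 in tibial cultures, a difference of 0.78 (SE 0.31) in the opposite direction, or 1.06 without mandibular 2 and tibial 3. Its level on tibial 2 was below that array's lower quartile and the one on tibial 3 just above it, so this difference too involves levels at background. ADAM12, which also cleaves binding proteins, differed by -0.29 (SE 0.25), or -0.55 without mandibular 2 and tibial 3, and MMP3 by -0.15 (SE 0.17) at levels of 2.51 to 3.15, below the lower quartiles. HTRA1, a serine protease with an IGFBP domain, held a steady level between 11.77 and 12.05.

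The growth hormone axis, which drives IGF1 expression in liver, had 5 measured genes, and the hormone's receptor was arranged much like IGF1. GHR measured 5.63, 6.56 and 5.16 in mandibular and 7.47, 7.04 and 5.37 in tibial cultures. Tibial 1, tibial 2 and mandibular 2 were its highest arrays in that order, as for IGF1, and r with IGF1 was 0.94 over the 6 arrays. CISH, a feedback inhibitor of cytokine receptors, measured 4.77, 5.95 and 5.17 and then 6.54, 6.23 and 5.26. GHR differed by -0.85 (SE 0.60) and CISH by -0.71 (SE 0.41), with differences of -1.86 and -1.41 without mandibular 2 and tibial 3 (adjusted p = 0.0531 and 0.0783 in limma). Without 1 array GHR ranged from -0.43 (without tibial 1) to -1.47 (without tibial 3) and CISH from -0.45 (without mandibular 1 or tibial 1) to -1.08 (without tibial 3). The kinase gene JAK2 differed by -0.09 (SE 0.20) and STAT5A by 0.11 (SE 0.16), and both turned without mandibular 2 and tibial 3, to 0.07 and -0.07.

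Genes that relay the receptor signal inside the cell showed small differences, with a median of -0.03 over 24 genes and 3 of them with a range of at least 1. INPP5D, the lipid phosphatase SHIP-1 of blood cells, was the exception by size. It measured 4.61, 5.08 and 4.96 in mandibular and 6.73, 6.47 and 4.93 in tibial cultures, high on the arrays with the highest IGF1 and macrophage levels. Its difference was -1.16 (SE 0.46), -0.81 without tibial 1, and -1.81 (SE 0.21, adjusted p = 0.0347 in limma) without mandibular 2 and tibial 3. RICTOR differed by 0.29 (SE 0.12), the docking protein gene GAB1 by -0.23 (SE 0.14) and the exchange factor gene SOS1 by 0.18 (SE 0.12). PAPPA, ADAM28 and INPP5D, all lower in mandibular cultures, were the 3 of 65 pathway genes called in that smaller fit, and no member of the IGF1 and IGFBP set was. Of all 27558 probe sets 195, or 0.708%, were called in it. Both the lists and the arrays left out were chosen with the data known, so the count is no result about the pathway.

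Other secreted proteins that carry an IGFBP domain had 8 measured genes with a median difference of 0.18, and none was called. NOV, the matricellular protein CCN3, measured 6.41, 9.40 and 9.24 in mandibular and 6.10, 5.65 and 7.70 in tibial cultures. Its difference was 1.87 (SE 0.90), the largest of the 65 genes on the mandibular side, although mandibular 1 lay below tibial 3. It was 2.84 without mandibular 1, from 1.35 to 2.48 in the other fits without 1 array, and 1.95 without mandibular 2 and tibial 3. ESM1, the proteoglycan endocan, measured 8.42, 8.61 and 9.62 and then 6.15, 6.82 and 9.29, low on the arrays that were highest for IGF1, with a difference of 1.46 (SE 0.80). That difference was 0.83 without tibial 1, 2.40 without tibial 3 and 2.53 without mandibular 2 and tibial 3. CTGF differed by 0.48 (SE 0.28) and CYR61 by 0.16 (SE 0.11). The 1 measured IGF2 mRNA binding protein gene, IGF2BP2, differed by -0.01 (SE 0.16).

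**Figure D4:**
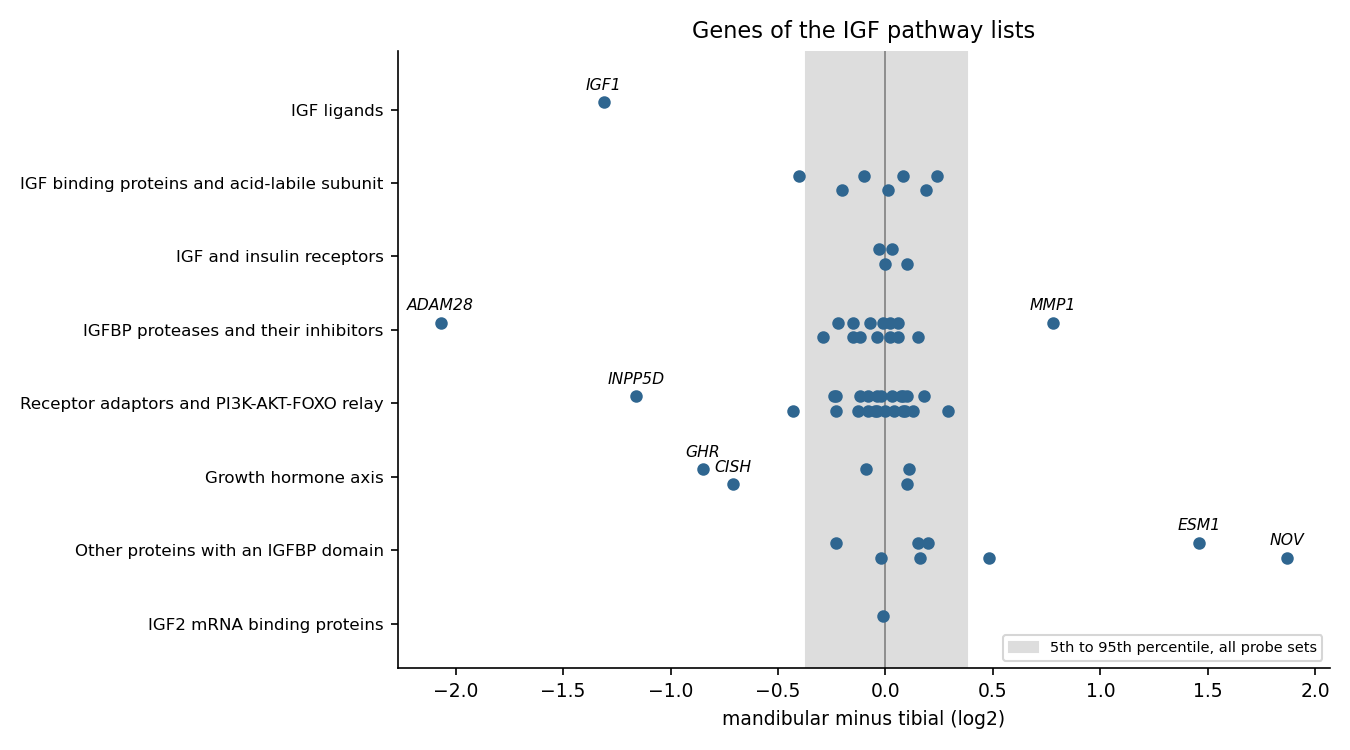
Difference between sites, mandibular minus tibial (log2), for the 65 measured genes of the pathway lists, 1 point per gene and 1 line per list; the grey band spans percentiles 5 to 95 of all probe sets, -0.37 to 0.38. Most points fall in the band, and those labelled by name, IGF1, ADAM28, INPP5D, GHR and CISH on the tibial side and MMP1, ESM1 and NOV on the mandibular side, lie well outside it, with IGFBP4, GRB14 and CTGF just past its edges.

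**Figure D5:**
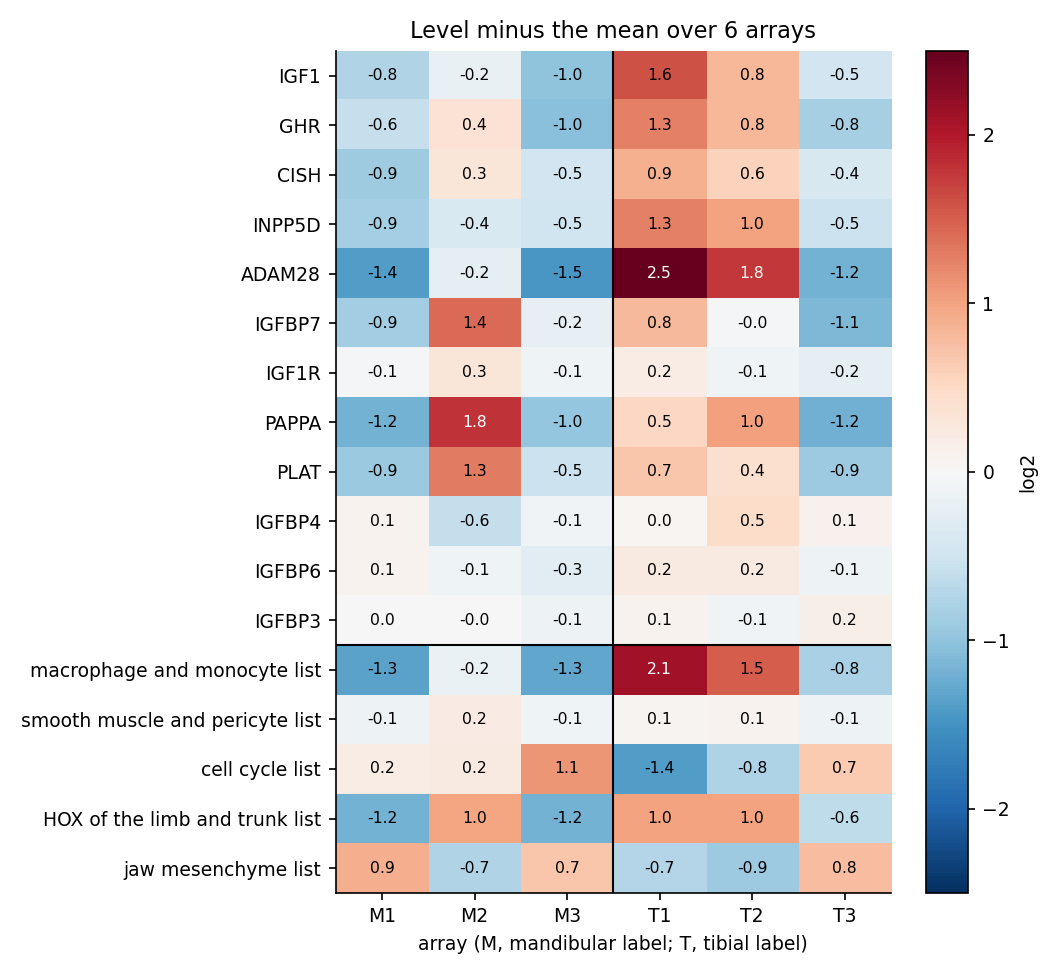
Level minus the mean over the 6 arrays (log2, colour and number) of members and pathway genes, above the line, and of mean levels of marker lists, below it; columns are the mandibular (M) and tibial (T) arrays. IGF1, GHR, INPP5D and ADAM28 are highest on T1 and T2 with the macrophage list, and IGFBP7, PAPPA, PLAT and IGF1R are highest on M2.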

How the data were processed

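The authors deposited log2 levels for 27558 probe sets on 6 arrays. The submitters' processing notes name RMA, Transcriptome Analysis Console 3.0 and Affymetrix Expression Console. Because RMA equalises the distributions of arrays, a change common to every gene on an array would not be seen. The genome build and the settings are not stated in those notes, so no coordinates are given, and no sequence is shown. In the platform annotation 13157 probe sets had 1 symbol, 523 had more and 13878 had none. Placeholder symbols were set aside, 7 symbols were updated by Entrez number, and a gene was read from its probe set of highest mean.

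Sites were compared in R 4.3.3 with limma 3.58.1 (eBayes after lmFit, unpaired, two-sided, Benjamini-Hochberg over all probe sets), tested on simulated data. Named were all members, up to 4 genes per pathway list by smallest unadjusted p, and the 5 genes most correlated with each member that had a range of at least 1. Others were chosen after their values were seen. The members and lists were chosen with earlier results of these data known. Marker lists were macrophage and monocyte, osteoclast, adipocyte, stromal, osteoblast, endothelial, epithelial, skeletal muscle, smooth muscle and pericyte, cell cycle, HOX and jaw. Alternatives were a replicate block, leaving out arrays, median centring, repeated quantile normalization, a filter on low levels, trend and robust fitting, and array weights.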

Additional observations from a re-analysis of the deposited data

How the results depend on the processing

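Under the 6 alternatives that kept all arrays, no probe set was called and no member changed direction. IGF1 ranged from -1.32 to -1.25 and IGFBP7 from 0.20 to 0.33, and the median of all probe sets stayed within 0.03 of 0. IGFBP3 was removed by the filter on low levels. A second probe set could not be tried for the members, which have 1 each. Leaving out 1 array gave 0 to 2 called probe sets, 1 without tibial 1 and 2 without tibial 3. The IGFBP7 difference ranged from -0.41 to 0.73 in these fits. Without mandibular 2 and tibial 3, chosen after the data were seen, 195 probe sets (0.708% of all) were called, IGFBP7 reversed to -0.91, the median of the 65 pathway genes was -0.06 and 3 of them were called.

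Same-numbered arrays did not all deviate together. The correlations of their deviations from the site means were -0.033, 0.212 and 0.473 for numbers 1, 2 and 3. Mandibular 1 correlated best with tibial 3, mandibular 2 with tibial 1 and mandibular 3 with its same-numbered tibial 3. Mandibular 2 and tibial 3, which went against their labels, enter these correlations, so they cannot tell whether a number marks a pig. Samples were left unpaired because the labels tie no number to a pig. With the replicate block, 0 probe sets were called, and IGF1 was -1.31 (adjusted p = 0.876 in limma).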

Other observations

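PLAT, which encodes tissue plasminogen activator, a protease that can act on IGF binding proteins, measured 6.49, 8.72 and 6.88 on mandibular 1, 2 and 3 and 8.11, 7.83 and 6.51 on tibial 1, 2 and 3. It was highest on mandibular 2, as PAPPA and IGFBP7 were, and its difference between sites was -0.12 (SE 0.66). That value ranged from -0.80 without mandibular 2 to 0.32 without mandibular 1, and it was -1.29 without mandibular 2 and tibial 3 (adjusted p = 0.0949 in limma). TIMP1, an inhibitor of metalloproteases, had its highest levels on tibial 1 and mandibular 2, at 12.28 and 12.16, and its lowest on tibial 3, at 11.28. MMP2, a gelatinase, was lowest on mandibular 2, at 11.44, as IGFBP4 was, and measured between 12.05 and 12.72 on the other 5 arrays. IRS1, the docking protein of the IGF1 and insulin receptors, was highest on tibial 2, at 9.26, the array with the highest IGFBP4 level, and lay between 8.19 and 8.71 on the others. These genes were chosen after their values were seen.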
